A study of Mus musculus with 23 samples.

Results

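Toll-like receptors sense microbial products and molecules released from damaged cells. The genes described here are 9 of these receptors (Tlr1, Tlr2, Tlr4, Tlr5, Tlr6, Tlr7, Tlr8, Tlr9 and Tlr13) and Cd14, which hands ligands to several of them. They were taken by name from a table of read counts for 54532 genes. Each of the 10 names matched 1 row, and all 10 passed the low-count filter that left 16545 genes for testing. Poly(A) RNA was sequenced from cardiac macrophages of C57BL/6 mice, obtained by magnetic sorting as Ly6G-negative cells and then as CD11b-positive cells. MyS7KO mice carried Smad7 fl/fl, alleles of Smad7 flanked by loxP sites, together with LyzM-Cre, a Cre recombinase driven by the lysozyme M promoter that is active in myeloid cells in general. Their S7fl/fl littermates carried the floxed Smad7 alleles without Cre. Smad7 encodes an inhibitor of TGF-beta signalling. Hearts were uninjured (baseline), or had been infarcted for 3 or 7 days by tying off a coronary artery for good, without reperfusion. The MyS7KO groups held 3 libraries at baseline, 5 at day 3 and 4 at day 7, and the S7fl/fl groups held 3, 5 and 3 libraries at these times. Whether the libraries of a group were made from different hearts is not stated in the labels. The p-values therefore speak to the spread among libraries.

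The receptors divide by where they work and by what they bind. TLR2 acts at the cell surface as a heterodimer with TLR1 or TLR6 and binds bacterial lipopeptides, TLR4 with its partner MD-2 binds lipopolysaccharide, and TLR5 binds flagellin. CD14 is anchored on the surface of monocytes and macrophages and passes lipopolysaccharide and lipopeptides to TLR4 and TLR2. TLR7, TLR8, TLR9 and TLR13 sit in endosomes and bind nucleic acids: single-stranded RNA for TLR7, RNA degradation products for TLR8, unmethylated CpG DNA for TLR9, and a stretch of bacterial ribosomal RNA for TLR13, a receptor that mice have and humans lack. All 9 signal through the adaptor MyD88, and TLR4 also through TRIF. In the infarcted heart, TLR2, TLR4 and TLR9 are among the receptors studied as sensors of matrix fragments, nuclear proteins and mitochondrial DNA from dying cells.

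Library totals were 15479402 to 23884938 counts. Levels below are CPM (read counts scaled to library size with TMM factors) for comparisons of 1 gene between libraries, and the authors' FPKM for comparisons between genes. Log2 changes carry their standard error, and a gene was called at an edgeR adjusted p under 0.05 over all genes tested. Lyz2, the gene that carries the Cre insertion, was lower in MyS7KO at each time (log2 -0.90 ± 0.145, edgeR adjusted p = 0.019 at baseline, log2 -0.92 ± 0.112, edgeR adjusted p = 0.000229 at day 3 and log2 -0.97 ± 0.133, edgeR adjusted p = 0.00177 at day 7). In edgeR the baseline Lyz2 call ended without MyS7KO baseline replicate 1 (adjusted p = 0.478) or 2 (adjusted p = 0.771) and without S7fl/fl baseline replicate 1 (adjusted p = 0.265), 2 (adjusted p = 0.0649) or 3 (adjusted p = 0.064). It also ended with the replicate number as a block (edgeR adjusted p = 0.0746). When only the groups compared were fitted, the baseline call (edgeR adjusted p = 0.999) and the day 7 call (edgeR adjusted p = 0.308) ended. Smad7, the targeted gene, averaged 38.0 ± 15.9, 14.6 ± 3.98 and 23.4 ± 7.66 CPM in MyS7KO at baseline, day 3 and day 7, against 56.4 ± 4.25, 34.7 ± 4.42 and 62.5 ± 6.76 CPM in S7fl/fl, without overlap at any time. It was not called by edgeR (adjusted p = 0.999, 0.11 and 0.0702) and was called at day 3 and day 7 by DESeq2 (adjusted p = 0.000108 and 0.000189) and limma-voom (adjusted p = 0.00307 and 0.026). edgeR also called Smad7 at both times without MyS7KO baseline replicate 3 (adjusted p = 0.00367 at day 3 and 0.00415 at day 7) or day 7 replicate 4 (adjusted p = 0.0405 at day 3 and 0.0314 at day 7). In edgeR, day 3 was called when only the groups compared were fitted (adjusted p = 0.00934). It was also called without MyS7KO day 3 replicate 1 (edgeR adjusted p = 0.0426), and Smad7 was called at day 7 without MyS7KO day 7 replicate 3 (edgeR adjusted p = 0.0445). The 6 macrophage markers (Adgre1, Csf1r, Itgam, Fcgr1, Cd68 and Mertk) were detected in every group and summed to 3520 to 5340 CPM. Neutrophil markers, 9 in number, summed to 96.0 to 212 CPM, with Ly6g at 0 in MyS7KO at day 3 and day 7 and in S7fl/fl at day 7. Markers of dendritic cells summed to 80.1 to 147 CPM over all libraries. T and NK cell markers summed to 21.2 to 35.3, 3.83 to 9.41 and 8.11 to 14.2 CPM in MyS7KO at baseline, day 3 and day 7, and to 28.4 to 63.6, 5.04 to 8.57 and 6.16 to 14.7 CPM in S7fl/fl. Cardiomyocyte markers summed to 54.3 to 75.6, 11.8 to 26.6 and 13 to 59.6 CPM in MyS7KO, and to 68.2 to 90.9, 10.2 to 22.4 and 13 to 47.7 CPM in S7fl/fl. The part of these markers in the changes over time was not tested. In MyS7KO, endothelial markers summed to 717 to 1690 CPM at baseline, 316 to 550 CPM at day 3 and 137 to 826 CPM at day 7, and in S7fl/fl to 1240 to 1610, 229 to 509 and 168 to 313 CPM. In bulk RNA, fewer cells of a type and less RNA per cell cannot be told apart. Xist, a female-specific RNA, was read in 1 of 3, 3 of 5 and 4 of 4 MyS7KO libraries at baseline, day 3 and day 7, against 2 of 3, 2 of 5 and 0 of 3 S7fl/fl libraries, and the other libraries carried Y-linked reads. At day 7 sex and genotype therefore cannot be told apart. The share of Xist libraries also differed between times within each genotype, so sex enters the changes between times too. MyS7KO day 3 replicate 3 and S7fl/fl day 3 replicate 4 each also carried transcripts of the other sex at over 2% of their usual level.

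Per length, Cd14 was the most abundant of the 10 genes in every group and Tlr2 came next. Cd14 averaged 1141 ± 184 FPKM at baseline, 3006 ± 315 FPKM at day 3 and 2277 ± 301 FPKM at day 7 in MyS7KO, and 910 ± 148, 2751 ± 387 and 3089 ± 512 FPKM in S7fl/fl (SD). Tlr2 averaged 215 ± 16.9, 248 ± 12.9 and 439 ± 46.0 FPKM in MyS7KO and 166 ± 27.0, 232 ± 17.1 and 507 ± 44.7 FPKM in S7fl/fl at the same times. In no group did libraries overlap between Cd14 and Tlr2, or between Tlr2 and the gene after it. Next in every group was Tlr7 or Tlr13, both receptors of nucleic acids. At baseline Tlr7 came after Tlr2, at 44.1 ± 9.91 FPKM in MyS7KO and 34.9 ± 6.24 FPKM in S7fl/fl, with Tlr8 and Tlr13 after it. At day 3 Tlr13 took that place, at 34.6 ± 3.12 FPKM in MyS7KO and 37.9 ± 3.99 FPKM in S7fl/fl, without overlap with Tlr7 at 24.9 ± 1.52 FPKM in MyS7KO and 26.4 ± 3.53 FPKM in S7fl/fl. At day 7 Tlr7 and Tlr13 overlapped in both genotypes. Tlr1 and Tlr8 overlapped at day 3 in both genotypes, as did Tlr4 and Tlr9. At baseline Tlr1, Tlr4, Tlr9 and Tlr5 lay between 4.32 and 8.26 FPKM in their group means, each overlapping its neighbour in the order. The least abundant gene was Tlr6 at baseline, at 3.14 ± 0.537 FPKM in MyS7KO and 3.12 ± 0.245 FPKM in S7fl/fl, and Tlr5 at both later times, down to 1.64 ± 0.183 FPKM in MyS7KO and 2.23 ± 0.528 FPKM in S7fl/fl at day 7. Of the summed FPKM of the 9 receptors, Tlr2 made up 65.9 ± 2.54% at baseline, 68.4 ± 1.60% at day 3 and 74.7 ± 0.994% at day 7 in MyS7KO, and 64.7 ± 4.13%, 64.7 ± 1.12% and 77.2 ± 3.15% in S7fl/fl. The endosomal receptors made up 26.5 ± 2.18%, 22.9 ± 1.49% and 20.9 ± 1.03% in MyS7KO and 26.8 ± 3.16%, 25.3 ± 1.09% and 18.2 ± 2.77% in S7fl/fl. The ratio of Cd14 to Tlr4 in FPKM was 141 ± 33.1, 431 ± 105 and 336 ± 34.5 in MyS7KO and 143 ± 65.2, 320 ± 48.2 and 597 ± 223 in S7fl/fl.

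**Figure D1:**
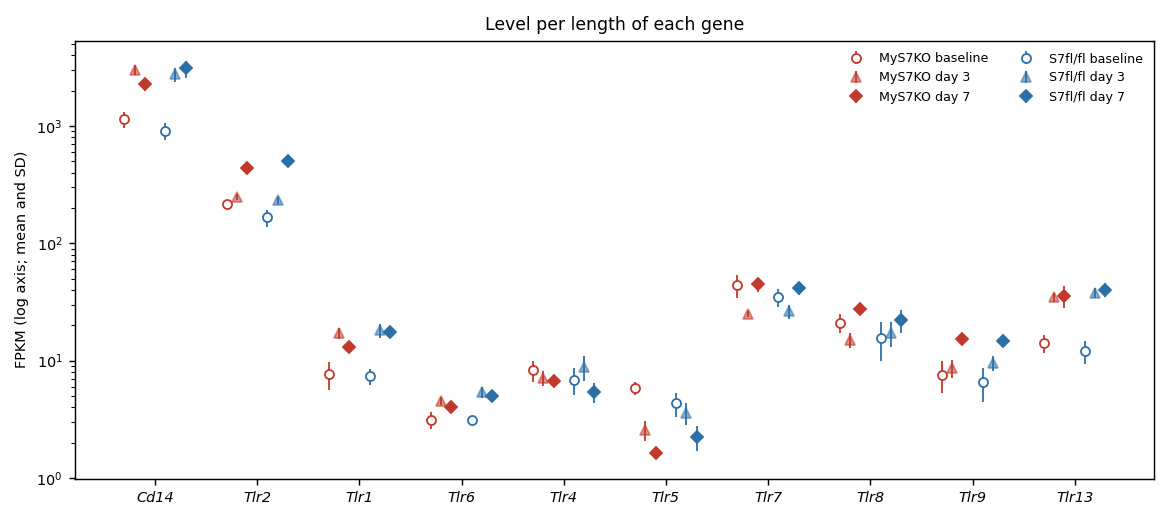
FPKM (log axis; mean and SD over the libraries of a group) of the 10 genes, with MyS7KO in red left of S7fl/fl in blue and circles, triangles and diamonds for baseline, day 3 and day 7. Cd14 lies above 900 FPKM in every group mean and Tlr2 above 160 FPKM, while Tlr5 falls to 1.64 FPKM in MyS7KO and 2.23 FPKM in S7fl/fl at day 7.

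Most of the genes differed between times. At day 3 against baseline, 7 of the 10 were called in MyS7KO, 4 higher and 3 lower. There 65.9% of all genes tested were called, 30.7% higher and 35.2% lower. In S7fl/fl 7 were also called, 6 higher and 1 lower, where 64% of all genes were called, 29.9% higher and 34.1% lower. At day 7 against baseline, 6 were higher and 1 was lower in MyS7KO (44% of all genes called, 22.2% higher and 21.8% lower). For S7fl/fl 6 were higher and 1 was lower (50.2% of all genes called, 24.8% higher and 25.4% lower). At day 7 against day 3, 7 were called in MyS7KO, 4 higher and 3 lower (39.6% of all genes called, 20.5% higher and 19.1% lower). In S7fl/fl 5 were called, 3 higher and 2 lower (21.7% of all genes called, 11.5% higher and 10.1% lower). At day 3 against baseline, the share of the 10 genes called was near that of all genes in both genotypes. The median log2 change of the 10 genes at day 3 was 0.19 in MyS7KO and 0.52 in S7fl/fl, beside -0.10 in MyS7KO and -0.06 in S7fl/fl over all genes tested. At day 7 it was 0.58 in MyS7KO and 0.94 in S7fl/fl, beside -0.01 in MyS7KO and -0.02 in S7fl/fl over all genes. The genes followed 4 courses: Cd14, Tlr1, Tlr6 and Tlr13 were higher at both later times, Tlr2 and Tlr9 reached their highest level at day 7, Tlr7 and Tlr8 had their lowest MyS7KO level at day 3, and Tlr5 was lowest at day 7. Tlr4 was not called against baseline in either genotype. These courses describe the measured levels and were grouped after the values were seen.

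**Figure D2:**
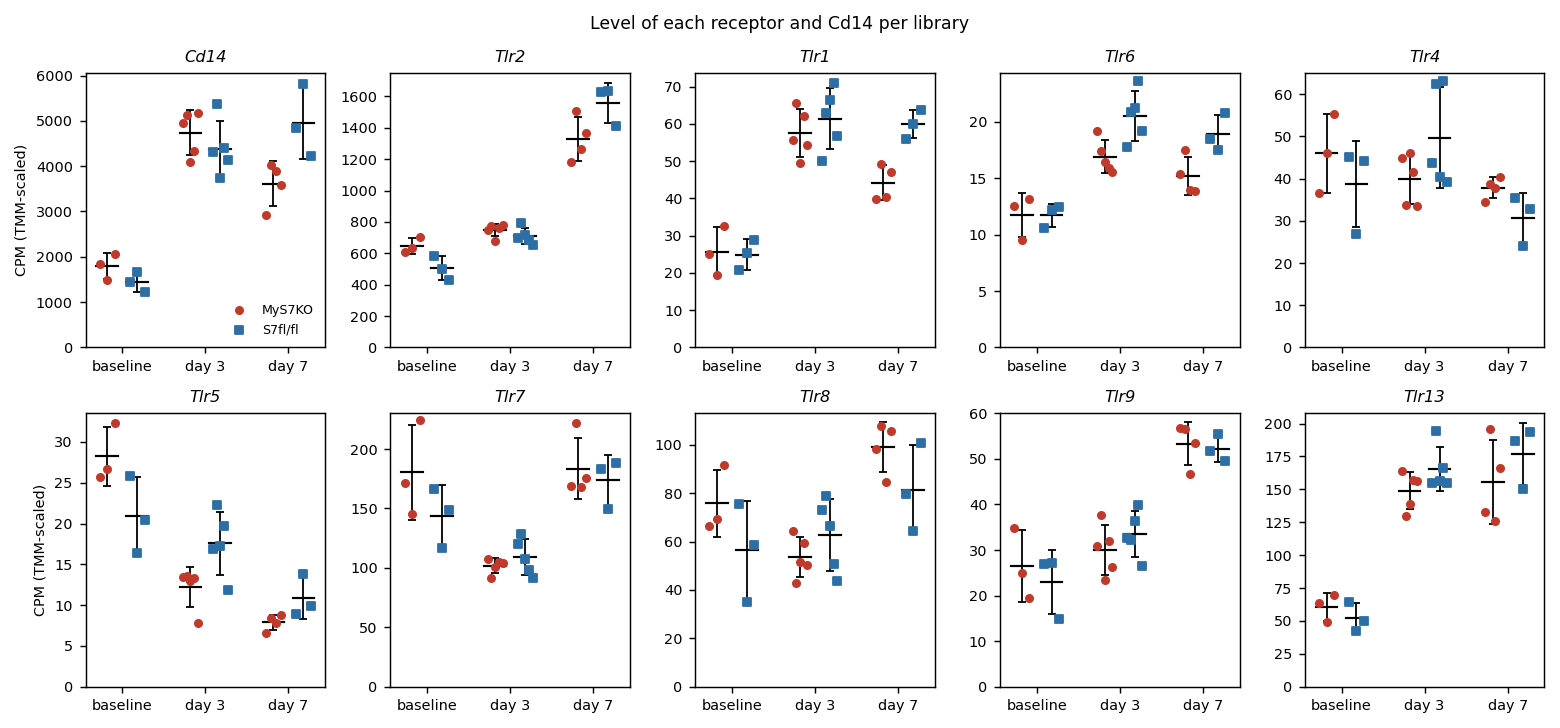
TMM-scaled CPM (vertical axis from 0) of each gene in each library at baseline, day 3 and day 7, with MyS7KO libraries as red circles left of S7fl/fl libraries as blue squares; long bars are group means and whiskers SDs. Cd14, Tlr1 and Tlr13 lie above all baseline libraries at both later times, and Tlr2 and Tlr9 at day 7.

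Cd14, the co-receptor, was higher at both later times in both genotypes. In MyS7KO libraries Cd14 read 1844, 1491 and 2053 CPM at baseline, 4950, 5134, 4085, 4324 and 5178 CPM at day 3, and 2915, 4035, 3888 and 3589 CPM at day 7. In S7fl/fl libraries it read 1452, 1662 and 1218 CPM at baseline, 4306, 5365, 3733, 4399 and 4131 CPM at day 3, and 4832, 5820 and 4217 CPM at day 7. Every library after infarction lay above every baseline library of its genotype. At day 3 the level was 2.64 times the baseline level in MyS7KO (log2 1.40 ± 0.157, edgeR adjusted p = 6.82e-08). The S7fl/fl level was 3.04 times baseline (log2 1.60 ± 0.158, edgeR adjusted p = 1.14e-08). At day 7 it was 2.01 times the baseline level in MyS7KO (log2 1.01 ± 0.159, edgeR adjusted p = 2.44e-05). For S7fl/fl the factor was 3.43 (log2 1.78 ± 0.171, edgeR adjusted p = 2.32e-08). The day 7 libraries of MyS7KO all lay below its day 3 libraries (log2 -0.39 ± 0.137, edgeR adjusted p = 0.0256), while those of S7fl/fl overlapped its day 3 libraries (log2 0.18 ± 0.147, edgeR adjusted p = 0.436). The lower day 7 level in MyS7KO was no longer called without MyS7KO day 3 replicate 2 (log2 -0.36, adjusted p = 0.0553), day 3 replicate 5 (log2 -0.36, adjusted p = 0.0598) or day 7 replicate 1 (log2 -0.30, adjusted p = 0.107), each by edgeR. Monocyte markers, 7 of 7 detected, were also above baseline at both later times. They summed to 165 to 199, 751 to 1050 and 318 to 651 CPM in MyS7KO at baseline, day 3 and day 7, and to 193 to 240, 809 to 1970 and 518 to 750 CPM in S7fl/fl. The day 7 sums lay below the day 3 sums without overlap in both genotypes, as Cd14 did in MyS7KO but not in S7fl/fl. Their part in the Cd14 result was not tested.

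Tlr2, the shared subunit of the lipopeptide receptors, stood highest at day 7. In MyS7KO libraries Tlr2 read 607, 636 and 706 CPM at baseline, 748, 775, 681, 762 and 781 CPM at day 3, and 1184, 1510, 1263 and 1367 CPM at day 7. The S7fl/fl libraries gave 585, 501 and 432 CPM at baseline, 700, 796, 716, 686 and 655 CPM at day 3, and 1628, 1635 and 1411 CPM at day 7. The day 7 libraries of both genotypes lay above all their baseline and day 3 libraries. At day 7 Tlr2 was 2.05 times the baseline level in MyS7KO (log2 1.03 ± 0.115, edgeR adjusted p = 2.18e-07) and 3.08 times in S7fl/fl (log2 1.62 ± 0.123, edgeR adjusted p = 5.91e-10). Against day 3 it was 1.78 times in MyS7KO (log2 0.83 ± 0.0979, edgeR adjusted p = 9.15e-07) and 2.19 times in S7fl/fl (log2 1.13 ± 0.105, edgeR adjusted p = 1.56e-07). At day 3 the difference from baseline was not called in MyS7KO (log2 0.21 ± 0.108, edgeR adjusted p = 0.0976), where the libraries overlapped, but was called in S7fl/fl (log2 0.49 ± 0.109, edgeR adjusted p = 0.00044). That MyS7KO difference was called with limma-voom (log2 0.26, adjusted p = 0.00622) and by edgeR without S7fl/fl baseline replicate 1 (log2 0.25, adjusted p = 0.0423). Fibroblast markers, 5 of 5 detected, also had their highest median sum at day 7. In MyS7KO they summed to 415 to 863, 355 to 847 and 1140 to 3220 CPM at baseline, day 3 and day 7. The S7fl/fl sums were 572 to 881, 175 to 755 and 777 to 2080 CPM. Unlike Tlr2, the marker sums overlapped between day 7 and baseline in S7fl/fl. The part of these markers in the Tlr2 result was not tested.

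Tlr1 and Tlr6, the alternative partners of TLR2, were higher at day 3 and day 7 in both genotypes. In MyS7KO libraries Tlr1 read 25.0, 19.5 and 32.6 CPM at baseline, 55.6, 65.5, 49.4, 62.2 and 54.4 CPM at day 3, and 39.9, 49.2, 40.4 and 47.1 CPM at day 7. In S7fl/fl libraries Tlr1 read 20.7, 25.2 and 28.9 CPM at baseline, 50, 62.9, 66.4, 71.0 and 56.9 CPM at day 3, and 56.0, 60.1 and 63.7 CPM at day 7. No library after infarction overlapped with baseline. Tlr1 was 2.23 times the baseline level at day 3 in MyS7KO (log2 1.16 ± 0.149, edgeR adjusted p = 5.2e-07). The factor in S7fl/fl was 2.46 (log2 1.30 ± 0.15, edgeR adjusted p = 1.19e-07). At day 7 it was 1.72 times the baseline level in MyS7KO (log2 0.78 ± 0.153, edgeR adjusted p = 0.000273). It was 2.4 times in S7fl/fl (log2 1.26 ± 0.162, edgeR adjusted p = 1.4e-06). As with Cd14, the MyS7KO level at day 7 was below day 3 (log2 -0.38 ± 0.131, edgeR adjusted p = 0.0244), and S7fl/fl showed no call (log2 -0.04 ± 0.142, edgeR adjusted p = 0.89). The MyS7KO call ended in edgeR without MyS7KO day 3 replicate 2 (log2 -0.33, adjusted p = 0.0654), day 3 replicate 4 (log2 -0.35, adjusted p = 0.0543), day 7 replicate 1 (log2 -0.33, adjusted p = 0.0807) or day 7 replicate 4 (log2 -0.34, adjusted p = 0.0729). Tlr6 ranged over 9.48 to 13.1, 15.6 to 19.2 and 13.8 to 17.5 CPM in MyS7KO at baseline, day 3 and day 7, and over 10.6 to 12.5, 17.7 to 23.6 and 17.5 to 20.8 CPM in S7fl/fl. The Tlr6 changes against baseline were log2 0.53 ± 0.126, edgeR adjusted p = 0.000807 at day 3 and log2 0.37 ± 0.131, edgeR adjusted p = 0.0245 at day 7 in MyS7KO. In S7fl/fl they were log2 0.81 ± 0.126, edgeR adjusted p = 8.42e-06 at day 3 and log2 0.69 ± 0.138, edgeR adjusted p = 0.00027 at day 7. The day 7 call in MyS7KO ended in edgeR without MyS7KO baseline replicate 2 (log2 0.26, adjusted p = 0.147), without MyS7KO day 7 replicate 3 (log2 0.30, adjusted p = 0.0896) and when only the groups compared were fitted (log2 0.37, adjusted p = 0.0928). Tlr1 (chr5:64924679-64933563) and Tlr6 (chr5:64952031-64960097, both on the minus strand of GRCm38) are neighbours 18467 bases apart. Their transcripts share an identical run of 229 bases, so reads of 150 bases from it fit either gene: 4.83% of the 150-base windows of Tlr1 and 3.94% of those of Tlr6 occur in the other. The longest run shared by any other pair of the 10 genes was 18 bases. The split of such reads between Tlr1 and Tlr6 is uncertain.

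Tlr4, the lipopolysaccharide receptor, was not called against baseline at either time. Its MyS7KO values were 36.6, 46.1 and 55.3 CPM at baseline, 44.8, 33.7, 46.0, 41.5 and 33.6 CPM at day 3, and 34.4, 38.8, 37.8 and 40.4 CPM at day 7. For S7fl/fl the Tlr4 values were 45.2, 27.0 and 44.1 CPM at baseline, 43.6, 62.3, 40.3, 63.0 and 39.2 CPM at day 3, and 35.4, 24.1 and 32.8 CPM at day 7. All these groups overlapped except day 3 and day 7 in S7fl/fl. Against baseline the values were log2 -0.20 ± 0.189, edgeR adjusted p = 0.346 at day 3 and log2 -0.28 ± 0.198, edgeR adjusted p = 0.257 at day 7 in MyS7KO. In S7fl/fl they were log2 0.36 ± 0.191, edgeR adjusted p = 0.108 at day 3 and log2 -0.33 ± 0.213, edgeR adjusted p = 0.199 at day 7. At day 7 against day 3 Tlr4 was not called in MyS7KO (log2 -0.08 ± 0.175, edgeR adjusted p = 0.761), whereas it was lower in S7fl/fl (log2 -0.69 ± 0.195, edgeR adjusted p = 0.0137). The difference between these changes was itself not called (log2 0.61 ± 0.260, edgeR adjusted p = 0.453). Single S7fl/fl libraries decided these calls in edgeR: without day 7 replicate 3 the lower day 7 level was not called (log2 -0.54, adjusted p = 0.086). Without baseline replicate 1 the day 3 level was called higher than baseline (log2 0.53, adjusted p = 0.0468), and without baseline replicate 2 the day 7 level was called lower than baseline (log2 -0.53, adjusted p = 0.0424).

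Tlr5, the flagellin receptor, was lower at both later times in MyS7KO and at day 7 in S7fl/fl. In MyS7KO libraries Tlr5 read 25.6, 26.7 and 32.3 CPM at baseline, 13.4, 13.6, 13, 13.3 and 7.79 CPM at day 3, and 6.62, 8.43, 7.80 and 8.76 CPM at day 7. In S7fl/fl libraries Tlr5 read 25.9, 16.4 and 20.5 CPM at baseline, 16.9, 22.2, 17.3, 19.7 and 11.9 CPM at day 3, and 8.96, 13.8 and 9.91 CPM at day 7. In MyS7KO every later library lay below every baseline library; in S7fl/fl this held at day 7 but not at day 3. In MyS7KO Tlr5 was 2.3-fold lower than baseline at day 3 (log2 -1.21 ± 0.191, edgeR adjusted p = 9.33e-06). At day 7 it was 3.57-fold lower (log2 -1.84 ± 0.207, edgeR adjusted p = 2.77e-07). In S7fl/fl it was 1.92-fold lower at day 7 (log2 -0.94 ± 0.222, edgeR adjusted p = 0.00124) and not called at day 3 (log2 -0.25 ± 0.194, edgeR adjusted p = 0.258). The difference between the 2 genotypes in the day 3 change was not called (log2 -0.95 ± 0.276, edgeR adjusted p = 0.878, unadjusted p = 0.00221). Against day 3, day 7 was lower in MyS7KO (log2 -0.63 ± 0.188, edgeR adjusted p = 0.00981), and S7fl/fl was lower too (log2 -0.69 ± 0.203, edgeR adjusted p = 0.017). The libraries of both times overlapped in both genotypes. The MyS7KO call ended with limma-voom (log2 -0.51, adjusted p = 0.0656), and the S7fl/fl call ended in edgeR without S7fl/fl day 7 replicate 2 (log2 -0.56, adjusted p = 0.112) or replicate 4 (log2 -0.62, adjusted p = 0.081). Resident macrophage markers (Lyve1, Timd4, Folr2, Cd163, Mrc1 and Vsig4, 6 of 6 detected) were also lower at both later times. They summed to 3790 to 4870, 765 to 1160 and 685 to 1180 CPM in MyS7KO at baseline, day 3 and day 7, and to 2960 to 4220, 926 to 1500 and 988 to 1110 CPM in S7fl/fl. Unlike Tlr5, these sums lay below baseline without overlap at day 3 in S7fl/fl too. Their part in the Tlr5 result was not tested.

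**Figure D3:**
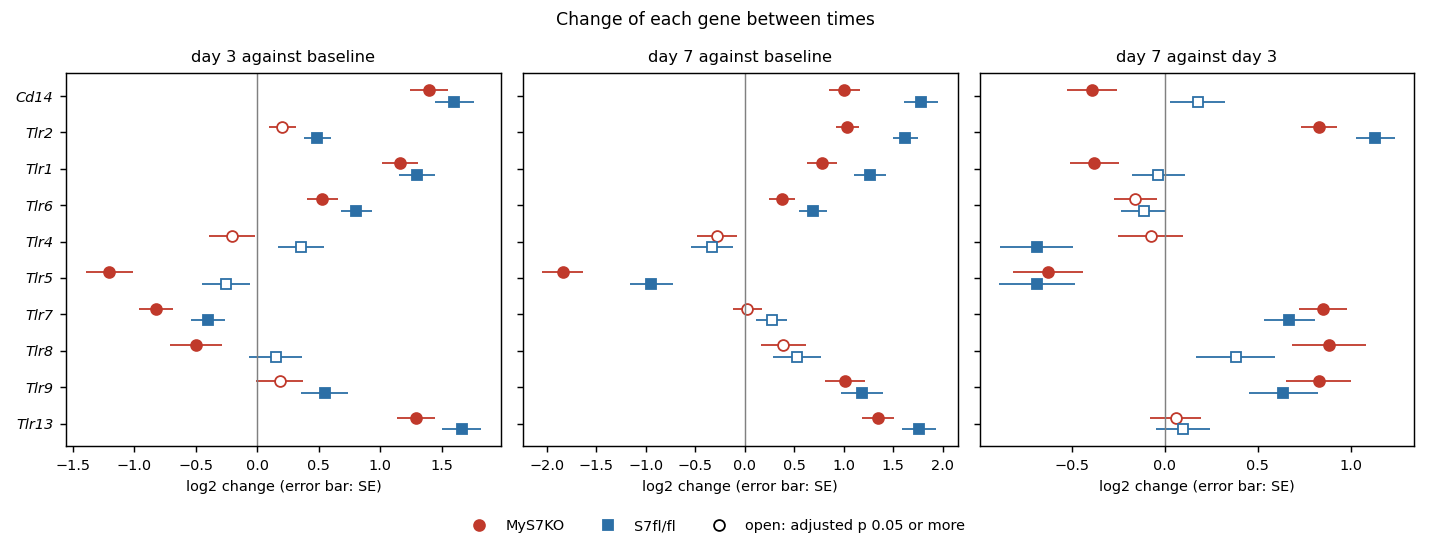
Log2 change of each gene between times (horizontal axis; error bars are the standard error of the edgeR fit), with MyS7KO as red circles above S7fl/fl as blue squares; filled points have an adjusted p under 0.05. Tlr5 lies left of 0 in all 3 panels, at -1.84 in MyS7KO and -0.94 in S7fl/fl for day 7 against baseline, while Cd14, Tlr1, Tlr6 and Tlr13 lie right of 0 against baseline at both times.

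Among the endosomal receptors, Tlr13 rose at both times in both genotypes. Tlr13 levels in MyS7KO were 63.8, 49.1 and 69.9 CPM at baseline, 164, 130, 139, 157 and 156 CPM at day 3, and 133, 196, 126 and 166 CPM at day 7. For S7fl/fl the values were 64.1, 42.3 and 50.2 CPM at baseline, 155, 194, 156, 166 and 155 CPM at day 3, and 187, 150 and 194 CPM at day 7. Later libraries did not overlap with baseline in either genotype, and day 3 and day 7 overlapped. At day 3 Tlr13 was 2.45 times its baseline level in MyS7KO (log2 1.29 ± 0.156, edgeR adjusted p = 2.14e-07). S7fl/fl stood at 3.16 times its baseline (log2 1.66 ± 0.159, edgeR adjusted p = 7.31e-09). At day 7 the values were 2.55 times in MyS7KO (log2 1.35 ± 0.161, edgeR adjusted p = 6.47e-07), with S7fl/fl at 3.38 times (log2 1.76 ± 0.171, edgeR adjusted p = 2.86e-08). No call was made between day 7 and day 3 (log2 0.06 ± 0.136, edgeR adjusted p = 0.763 in MyS7KO; log2 0.10 ± 0.147, edgeR adjusted p = 0.688 in S7fl/fl). Tlr9, the CpG DNA receptor, was highest at day 7 like Tlr2. The MyS7KO libraries gave Tlr9 levels of 34.9, 25.0 and 19.4 CPM at baseline, 30.9, 37.7, 23.4, 32.0 and 26.2 CPM at day 3, and 56.7, 56.5, 46.8 and 53.4 CPM at day 7. The S7fl/fl libraries gave 27.0, 27.1 and 14.8 CPM at baseline, 32.7, 32.2, 36.4, 39.98 and 26.5 CPM at day 3, and 51.7, 55.4 and 49.6 CPM at day 7. The day 7 libraries lay above all others of their genotype. At day 7 Tlr9 was 2.02 times its baseline level in MyS7KO (log2 1.01 ± 0.203, edgeR adjusted p = 0.00038). In S7fl/fl it was 2.28 times (log2 1.19 ± 0.214, edgeR adjusted p = 0.000102). Against day 3 it was 1.77 times in MyS7KO (log2 0.83 ± 0.173, edgeR adjusted p = 0.000599) and 1.56 times in S7fl/fl (log2 0.64 ± 0.186, edgeR adjusted p = 0.0164). The day 3 level was not called against baseline in MyS7KO (log2 0.18 ± 0.191, edgeR adjusted p = 0.405), whereas it was called higher in S7fl/fl (log2 0.55 ± 0.194, edgeR adjusted p = 0.0173). In both genotypes these libraries overlapped with baseline. In edgeR the S7fl/fl day 3 call ended without S7fl/fl baseline replicate 3 (log2 0.31, adjusted p = 0.154). MyS7KO day 3 was called without MyS7KO baseline replicate 1 (log2 0.48, edgeR adjusted p = 0.0451). The S7fl/fl call between day 7 and day 3 ended without S7fl/fl day 7 replicate 2 (log2 0.65, adjusted p = 0.0504) or replicate 3 (log2 0.60, adjusted p = 0.0574), both by edgeR.

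Tlr7 and Tlr8, neighbours on the X chromosome (chrX:167304929-167330558 and chrX:167242696-167264329, minus strand, 40599 bases apart in GRCm38) differed at day 3 from baseline: Tlr7 was called lower in both genotypes and Tlr8 in MyS7KO. In MyS7KO libraries Tlr7 read 171, 146 and 224 CPM at baseline, 108, 91.1, 101, 105 and 104 CPM at day 3, and 169, 222, 168 and 176 CPM at day 7. In S7fl/fl libraries Tlr7 read 167, 116 and 149 CPM at baseline, 120, 128, 108, 98.5 and 91.4 CPM at day 3, and 183, 149 and 189 CPM at day 7. The day 3 libraries of MyS7KO lay below all its others, whereas those of S7fl/fl overlapped with baseline and lay below day 7. At day 3 Tlr7 was 1.77-fold lower than baseline in MyS7KO (log2 -0.83 ± 0.138, edgeR adjusted p = 1.74e-05) and 1.32-fold lower in S7fl/fl (log2 -0.40 ± 0.139, edgeR adjusted p = 0.0153). From there it was higher at day 7 by 1.81 times in MyS7KO (log2 0.85 ± 0.128, edgeR adjusted p = 1.6e-05) and 1.59 times in S7fl/fl (log2 0.67 ± 0.138, edgeR adjusted p = 0.00118). Day 7 was not called against baseline (log2 0.03 ± 0.147, edgeR adjusted p = 0.898 in MyS7KO; log2 0.27 ± 0.157, edgeR adjusted p = 0.157 in S7fl/fl). In edgeR the S7fl/fl day 3 call ended without S7fl/fl baseline replicate 1 (log2 -0.23, adjusted p = 0.225) or replicate 3 (log2 -0.37, adjusted p = 0.0533). Without baseline replicate 1 the S7fl/fl day 7 level was called above baseline (log2 0.44, edgeR adjusted p = 0.047). Tlr8 ranged over 66.5 to 91.5, 42.8 to 64.2 and 84.5 to 108 CPM in MyS7KO at baseline, day 3 and day 7, and over 35.1 to 75.5, 43.7 to 78.9 and 64.2 to 101 CPM in S7fl/fl, where all times overlapped. In MyS7KO it was 1.41-fold lower at day 3 than at baseline (log2 -0.50 ± 0.214, edgeR adjusted p = 0.0463) and 1.85 times the day 3 level at day 7 (log2 0.88 ± 0.198, edgeR adjusted p = 0.00125). edgeR made no Tlr8 call in S7fl/fl (log2 0.15 ± 0.217, edgeR adjusted p = 0.563 at day 3 and log2 0.53 ± 0.242, edgeR adjusted p = 0.0737 at day 7 against baseline, log2 0.38 ± 0.214, edgeR adjusted p = 0.225 for day 7 against day 3). The day 3 call in MyS7KO ended with the replicate number as a block (log2 -0.47, adjusted p = 0.0877), with sex as a covariate (log2 -0.41, adjusted p = 0.0755), without the low-count filter (log2 -0.46, adjusted p = 0.133), without the libraries of mixed sex signal (log2 -0.48, adjusted p = 0.0742) and in 13 of the 23 fits that left out 1 library (edgeR adjusted p = 0.0501 to 0.233). It also ended with limma on log2(FPKM + 1) (adjusted p = 0.0612, and 0.382 with no filter) and on log2(FPKM + 0.1) (adjusted p = 0.0607). Tlr8 at day 7 was called above baseline in MyS7KO with sex as a covariate (log2 0.61, edgeR adjusted p = 0.0392) and in S7fl/fl with limma-voom (log2 0.59, adjusted p = 0.0372). edgeR called it in S7fl/fl without baseline replicate 1 (log2 0.85, adjusted p = 0.0107) or day 7 replicate 3 (log2 0.68, adjusted p = 0.043). The libraries that ended the MyS7KO day 3 call were MyS7KO baseline replicates 1, 2 and 3, day 3 replicates 2, 3 and 5 and day 7 replicates 1, 3 and 5, and S7fl/fl baseline replicates 1 and 3, day 3 replicate 3 and day 7 replicate 2. Markers of plasmacytoid dendritic cells and B cells, cells that are rich in TLR7 and TLR9, summed to less than baseline at day 3 in both genotypes. At day 7 this held too, except that the B cell sums of MyS7KO overlapped with baseline. Tlr9 was highest at day 7, when Tlr7 was not called against baseline. The 5 plasmacytoid markers summed to 13 to 16.2, 1.87 to 4.27 and 2.50 to 5.78 CPM in MyS7KO at baseline, day 3 and day 7, and to 13.7 to 18.3, 1.28 to 3.88 and 3.48 to 4.01 CPM in S7fl/fl, where Klk1 was at 0 at baseline and day 7. The 6 B cell markers, all detected, summed to 30.3 to 45, 11.7 to 15.6 and 14.0 to 32.1 CPM in MyS7KO and to 42.4 to 52.6, 10.7 to 16.1 and 14.5 to 30.9 CPM in S7fl/fl. Their part in the Tlr7 and Tlr9 levels was not tested.

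Windows of 250 bases before the annotated start were taken from RefSeq (GRCm38.p6) for 7 of the 10 genes, all but Cd14, Tlr4 and Tlr7. Those of Tlr1 and Tlr13, which were higher at both later times, of Tlr2 and Tlr9, highest at day 7, and of Tlr5, lowest at day 7, are shown 5′ to 3′ on the strand of the gene and stop where the gene begins in the deposited table. Capitals mark GAGGAAG, a form of the element bound by the macrophage factor PU.1, and a form of the NF-kB element, GGGA and CC with any 4 bases between them. Both were searched on either strand. The windows lie at chr5:64933564-64933808 (minus strand), chrX:106143025-106143203 (plus), chr3:83841768-83841858 (minus), chr9:106222348-106222597 (plus) and chr1:182954538-182954787 (plus).
Tlr1: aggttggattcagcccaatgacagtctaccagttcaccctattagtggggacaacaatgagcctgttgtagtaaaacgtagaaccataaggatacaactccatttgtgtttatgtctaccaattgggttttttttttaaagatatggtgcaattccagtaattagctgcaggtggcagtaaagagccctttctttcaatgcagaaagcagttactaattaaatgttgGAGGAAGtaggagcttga
Tlr13: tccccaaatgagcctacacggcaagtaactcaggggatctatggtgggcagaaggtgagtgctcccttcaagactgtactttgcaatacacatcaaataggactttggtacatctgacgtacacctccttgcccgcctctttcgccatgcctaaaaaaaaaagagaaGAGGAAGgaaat
Tlr2: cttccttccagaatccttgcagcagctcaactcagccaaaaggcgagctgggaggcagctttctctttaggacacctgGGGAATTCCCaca
Tlr9: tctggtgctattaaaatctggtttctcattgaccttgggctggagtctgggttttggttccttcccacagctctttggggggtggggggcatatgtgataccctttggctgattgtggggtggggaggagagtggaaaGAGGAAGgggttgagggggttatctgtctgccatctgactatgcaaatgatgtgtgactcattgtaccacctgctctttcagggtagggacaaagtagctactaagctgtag
Tlr5: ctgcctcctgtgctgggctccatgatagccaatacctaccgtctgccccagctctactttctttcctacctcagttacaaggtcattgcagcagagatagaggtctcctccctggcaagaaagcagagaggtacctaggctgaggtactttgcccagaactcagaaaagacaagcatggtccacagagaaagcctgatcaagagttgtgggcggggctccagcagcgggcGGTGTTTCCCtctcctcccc

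GAGGAAG occurred in the windows of Tlr1, Tlr9 and Tlr13, with its first base 23, 112 and 83 bases before the RefSeq start, and in 10.6% of all 32851 windows of that length. The NF-kB letters occurred in those of Tlr2, where they read GGGAATTCCC, and Tlr5, and in 17.6% of all windows. Of the other motifs searched on both strands, AP-1 (TGANTCA) was found for Tlr9 (6.75% of all windows), C/EBP (TTGCNNNAA) for Tlr6 (8.29%), TATAAA for Tlr6 and Tlr8 (12.4%) and the GC box GGGCGG for Tlr2 and Tlr5 (32.7%). The IRF element, GAAA and GAAA with any 2 bases between them (2.98%), and the CRE element TGACGTCA (1.55%) were not among the letters of these 7 windows. Motifs were counted over the whole window, so those inside the gene body, as with the GC boxes of Tlr2, are not among the printed bases. Tlr1, Tlr13 and Tlr9 shared the GAGGAAG letters, and Tlr6 held neither marked motif. Tlr2 and Tlr9 shared none of the 2 marked motifs. The part of these motifs in the courses was not tested. Bases just after the RefSeq start were found in a transcript of the same gene for every window but that of Tlr1. The motif position given for Tlr1 rests on that start, and the cause was not tested. A match is a run of letters and not a measured binding site.

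Between the genotypes, none of the 10 genes was called at any time by edgeR, where 2 genes in all were called at baseline (0.0121% of those tested), 2 at day 3 (0.0121%) and 3 at day 7 (0.0181%). An unadjusted p under 0.05 was reached by 1 of the 10 at baseline (375 of all genes), 2 at day 3 (594 of all genes) and 4 at day 7 (2173 of all genes). DESeq2 and limma-voom also called 0 of the 10 at each time. At baseline Tlr2 had higher values in MyS7KO without overlap (650 ± 51.0 CPM in MyS7KO and 506 ± 76.6 CPM in S7fl/fl, n = 3 each; log2 0.36 ± 0.12, edgeR adjusted p = 0.999). The log2 difference was above 0 for 9 of the 10 genes and largest for Tlr5 at 0.43. Its median over the 10 was 0.28, beside -0.03 over all genes tested. At day 3 the log2 difference was below 0 for 8 of the 10, from -0.52 for Tlr5 to 0.11 for Cd14. Its median over the 10 was -0.15, beside -0.002 over all genes. The 10 genes were read in the same libraries, so these direction counts are not a test of the genotype. Tlr5 averaged 12.2 ± 2.49 CPM in MyS7KO and 17.6 ± 3.84 CPM in S7fl/fl (log2 -0.52 ± 0.172, edgeR adjusted p = 0.982). Tlr6 averaged 16.9 ± 1.46 CPM in MyS7KO and 20.5 ± 2.21 CPM in S7fl/fl (log2 -0.28 ± 0.106, edgeR adjusted p = 0.982). Both overlapped between the genotypes. At day 7 Cd14 averaged 3607 ± 497 CPM in the 4 MyS7KO libraries and 4956 ± 809 CPM in the 3 S7fl/fl libraries (log2 -0.46 ± 0.154, edgeR adjusted p = 0.286). Tlr1 averaged 44.2 ± 4.71 CPM in MyS7KO and 59.9 ± 3.83 CPM in S7fl/fl (log2 -0.44 ± 0.148, edgeR adjusted p = 0.286). Tlr6 averaged 15.2 ± 1.70 CPM in MyS7KO and 18.9 ± 1.71 CPM in S7fl/fl (log2 -0.32 ± 0.128, edgeR adjusted p = 0.331). Tlr5 averaged 7.90 ± 0.943 CPM in MyS7KO and 10.9 ± 2.59 CPM in S7fl/fl (log2 -0.46 ± 0.211, edgeR adjusted p = 0.366). These 4 genes had lower values in MyS7KO without overlap, and none passed the test. How many of all genes tested lay without overlap between the genotypes was not counted. The separation is therefore not shown to be particular to these genes. Tlr4 stood in the other direction, at 37.8 ± 2.55 CPM in MyS7KO and 30.8 ± 5.91 CPM in S7fl/fl with overlap (log2 0.30 ± 0.201, edgeR adjusted p = 0.524). The 95% intervals of the log2 differences ran from -0.78 to -0.14 for Cd14 and from -0.90 to -0.03 for Tlr5 at day 7, and from -0.12 to 0.27 for Tlr2 and from -0.41 to 0.12 for Tlr13 at day 3. These intervals are not adjusted for the number of genes. The day 7 comparison sets libraries with Xist against libraries with Y-linked reads, and Tlr7, Tlr8 and Tlr13 are X-linked. In a fit over all libraries with sex as a covariate, 13 genes were called for sex and none of the 10 was among them. Each day 7 group held libraries of 1 sex only, so this sex estimate rests on the baseline and day 3 libraries. It does not by itself separate sex from genotype at day 7. The smallest p-values for sex were those of Tlr9, higher in Xist libraries (log2 0.34 ± 0.118, edgeR adjusted p = 0.759), and Tlr8, lower in them (log2 -0.32 ± 0.140, edgeR adjusted p = 0.774).

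Whether the genotype difference changed between times was tested for each gene in edgeR, and none of the 10 was called, and no gene of the 16545 was called in these tests (0%; DESeq2 called 0, 3 and 6 genes and limma-voom 0 in each). Unadjusted p-values under 0.05 were found for 4 of the 10 in day 3 against baseline (741 of all genes), 4 in day 7 against baseline (862 of all genes) and 3 in day 7 against day 3 (1726 of all genes), and DESeq2 and limma-voom called 0 of the 10 in each. The lowest was that of Tlr2 for day 7 against baseline (log2 -0.59 ± 0.164, unadjusted p = 0.00154, edgeR adjusted p = 0.877). Tlr5 for day 3 against baseline came next (log2 -0.95 ± 0.276, unadjusted p = 0.00221, edgeR adjusted p = 0.878). Cd14 for day 7 against baseline followed (log2 -0.77 ± 0.226, unadjusted p = 0.00235, edgeR adjusted p = 0.877). For Tlr2 and Cd14, the value compares a smaller change since baseline in MyS7KO with a larger one in S7fl/fl. The baseline libraries, whose means were higher in MyS7KO, enter it. So does sex, as Xist was read in 1 of 3 MyS7KO libraries at baseline and 4 of 4 at day 7. In S7fl/fl it was read in 2 of 3 at baseline and 0 of 3 at day 7.

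**Figure D4:**
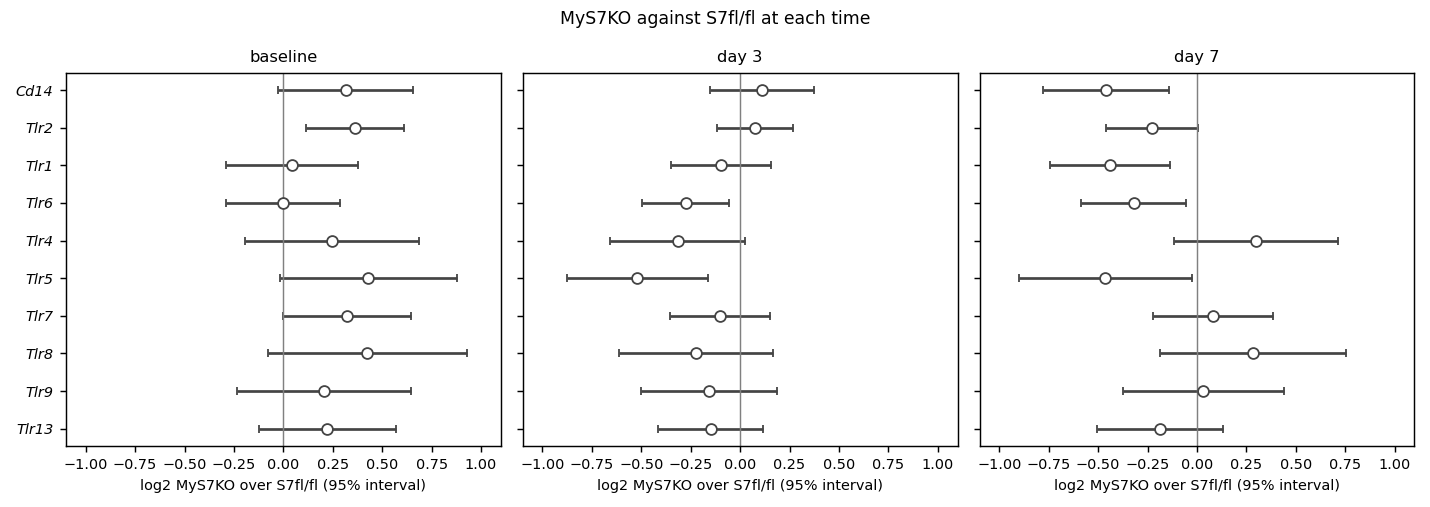
Log2 difference of MyS7KO over S7fl/fl for each gene (horizontal axis; bars are unadjusted 95% intervals) at baseline, day 3 and day 7. All points are drawn open whatever the call, and no adjusted p was under 0.05. At day 7 Cd14, Tlr1, Tlr6 and Tlr5 lie left of 0 at -0.46, -0.44, -0.32 and -0.46.

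Other genes of the pathway were counted in 6 lists. Named for the changes since baseline are the 2 called genes of each list with the lowest p in a comparison. A gene given for 1 genotype only was not among these 2 in the other, which is no sign of a genotype difference. No list gene was called for a change of the genotype difference between times. Over all genes tested, 30.7% were called higher and 35.2% lower at day 3 in MyS7KO, and 29.9% and 34.1% in S7fl/fl; at day 7 these were 22.2% and 21.8% in MyS7KO, and 24.8% and 25.4% in S7fl/fl. Between the genotypes, edgeR called none of the 86 list genes at any time, and an unadjusted p under 0.05 was reached by 1 of the 86 at baseline, 4 at day 3 and 17 at day 7, beside 375, 594 and 2173 of all 16545 genes. limma-voom also called none, and DESeq2 called none at baseline and day 3 and 2 at day 7 (Il10, an anti-inflammatory cytokine, and Nos2, the inducible nitric oxide synthase, both named after their values were seen). In edgeR these stood at log2 -1.13 ± 0.295, edgeR adjusted p = 0.247 for Il10 and log2 3.32 ± 0.994, edgeR adjusted p = 0.27 for Nos2. Of 19 adaptors and kinases close to the receptors, 11 were higher and 1 lower at day 3 in MyS7KO, and 14 and 1 in S7fl/fl, with median log2 changes of 0.40 in both. At day 7, 9 were higher and 2 lower in MyS7KO (median log2 0.14) and 11 and 0 in S7fl/fl (median log2 0.42). Leaving out 1 library moved the counts of lower adaptors between 0 and 2. Ikbke, which encodes a kinase that activates interferon regulatory factors, had 88.3 ± 13.3 CPM against 12.2 ± 2.05 CPM at baseline in MyS7KO at day 3 (log2 2.86 ± 0.233, edgeR adjusted p = 1.38e-09). In S7fl/fl it had 102 ± 25.4 CPM against 11.5 ± 3.03 CPM at baseline (log2 3.14 ± 0.236, edgeR adjusted p = 4.95e-10). It was also higher at day 7 (log2 2.30 ± 0.233, edgeR adjusted p = 1.09e-07 in MyS7KO; log2 2.62 ± 0.243, edgeR adjusted p = 3.12e-08 in S7fl/fl). Traf3, a ubiquitin ligase of TLR signalling, was higher at day 3 in MyS7KO (log2 1.30 ± 0.178, edgeR adjusted p = 1.34e-06). Ikbkg, the regulatory subunit of the kinase that frees NF-kB, was higher in S7fl/fl (log2 0.64 ± 0.0874, edgeR adjusted p = 1.21e-06). At day 7 Pik3ap1, an adaptor that links TLRs to PI3-kinase, was higher in MyS7KO (log2 1.46 ± 0.197, edgeR adjusted p = 3.96e-06). Irak2, a kinase of the MyD88 complex, was higher at day 7 in S7fl/fl (log2 1.16 ± 0.144, edgeR adjusted p = 9.75e-07). The list of other TLRs, accessory proteins and chaperones split: of 16 genes, 8 were higher and 5 lower at day 3 in MyS7KO and 6 and 6 in S7fl/fl, and 7 and 3 at day 7 in MyS7KO and 7 and 4 in S7fl/fl. Median log2 changes were 0.13 in MyS7KO and -0.00 in S7fl/fl at day 3, and 0.17 in MyS7KO and 0.11 in S7fl/fl at day 7. Without S7fl/fl day 7 replicate 3 or 4, 2 of its genes were lower at day 7 in S7fl/fl. The lowest p-values of this list belonged to lysosomal proteases that cut endosomal TLRs into their active form. Ctsl had 2169 ± 192 CPM against 301 ± 35.0 CPM at baseline in MyS7KO at day 3 (log2 2.85 ± 0.2, edgeR adjusted p = 6.05e-11). In S7fl/fl Ctsl had 2391 ± 223 CPM against 318 ± 16.7 CPM at baseline (log2 2.91 ± 0.2, edgeR adjusted p = 5.28e-11). Ctsb was also higher at day 3 (log2 1.93 ± 0.153, edgeR adjusted p = 3.76e-10 in MyS7KO; log2 1.96 ± 0.153, edgeR adjusted p = 3.43e-10 in S7fl/fl). At day 7 Ctss was higher (log2 2.04 ± 0.162, edgeR adjusted p = 1.22e-09 in MyS7KO; log2 2.06 ± 0.168, edgeR adjusted p = 1.95e-09 in S7fl/fl). So was Ctsl (log2 2.07 ± 0.196, edgeR adjusted p = 2.16e-08 in MyS7KO; log2 2.30 ± 0.205, edgeR adjusted p = 7.61e-09 in S7fl/fl).

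The transcription factors at the end of the pathway counted 3 higher and 1 lower of 10 at day 3 in MyS7KO and 4 and 2 in S7fl/fl, and 4 and 1 at day 7 in MyS7KO and 7 and 1 in S7fl/fl. Median log2 changes were 0.00 in MyS7KO and 0.10 in S7fl/fl at day 3, and 0.26 in MyS7KO and 0.50 in S7fl/fl at day 7. Without S7fl/fl baseline replicate 3, the higher S7fl/fl genes were 2 at day 3 and 4 at day 7, and without S7fl/fl baseline replicate 2 the lower ones were 1 at day 3. Irf1, an interferon regulatory factor, was lower at day 3 (log2 -2.08 ± 0.208, edgeR adjusted p = 2.62e-08 in MyS7KO; log2 -2.09 ± 0.208, edgeR adjusted p = 2.62e-08 in S7fl/fl). It was also lower in MyS7KO at day 7 (log2 -1.15 ± 0.22, edgeR adjusted p = 0.000257). Irf7, the factor downstream of endosomal TLRs, was higher at day 3 in MyS7KO (log2 1.69 ± 0.353, edgeR adjusted p = 0.000384). As above, a gene given for 1 genotype only was not among the 2 lowest p-values of the other. Irf5, which drives inflammatory cytokines, was higher in S7fl/fl at both times (log2 0.52 ± 0.129, edgeR adjusted p = 0.00124 at day 3; log2 0.73 ± 0.143, edgeR adjusted p = 0.00022 at day 7). Irf8, a factor of the monocyte lineage, was higher at day 7 (log2 0.50 ± 0.0917, edgeR adjusted p = 0.00015 in MyS7KO; log2 0.51 ± 0.0972, edgeR adjusted p = 0.000163 in S7fl/fl). Inhibitors of TLR signalling went both ways: of 14, 5 were higher and 5 lower at day 3 in MyS7KO and 6 and 6 in S7fl/fl, and at day 7 4 and 3 in MyS7KO and 6 and 4 in S7fl/fl. Median log2 changes were 0.07 in MyS7KO and 0.05 in S7fl/fl at day 3, and 0.14 in MyS7KO and 0.01 in S7fl/fl at day 7. Il1rl1, the receptor of interleukin-33, was lower at day 3 (log2 -4.48 ± 0.254, edgeR adjusted p = 6.39e-12 in MyS7KO; log2 -4.39 ± 0.256, edgeR adjusted p = 1.06e-11 in S7fl/fl). Day 7 was lower as well (log2 -3.16 ± 0.257, edgeR adjusted p = 3.9e-09 in MyS7KO; log2 -2.86 ± 0.283, edgeR adjusted p = 6.34e-08 in S7fl/fl). Otud7b, a deubiquitinase, was lower at day 3 (log2 -1.41 ± 0.121, edgeR adjusted p = 1.16e-09 in MyS7KO; log2 -1.28 ± 0.12, edgeR adjusted p = 5.94e-09 in S7fl/fl). Zc3h12a, which encodes an RNase that degrades cytokine mRNAs, was higher at day 7 (log2 1.101 ± 0.118, edgeR adjusted p = 1.21e-07 in MyS7KO; log2 1.26 ± 0.124, edgeR adjusted p = 3.42e-08 in S7fl/fl).

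Transcriptional targets of TLR signalling counted 10 higher and 6 lower of 18 at day 3 in MyS7KO and 9 and 5 in S7fl/fl, and 7 and 1 at day 7 in MyS7KO and 10 and 1 in S7fl/fl. Median log2 changes were 0.88 in MyS7KO and 0.90 in S7fl/fl at day 3, and 0.89 in MyS7KO and 1.24 in S7fl/fl at day 7. Without MyS7KO baseline replicate 1, 2 targets were lower at day 3 in MyS7KO, and the lower counts at day 7 moved between 0 and 2 when 1 library was left out. Ptgs2, the inducible prostaglandin synthase, had 1893 ± 221 CPM against 142 ± 15.9 CPM at baseline in MyS7KO at day 3 (log2 3.74 ± 0.263, edgeR adjusted p = 1.02e-10). In S7fl/fl it had 2129 ± 657 CPM against 109 ± 31.2 CPM at baseline (log2 4.29 ± 0.271, edgeR adjusted p = 2.43e-11). Ptgs2 was higher at day 7 too (log2 2.36 ± 0.249, edgeR adjusted p = 1.42e-07 in MyS7KO; log2 3.33 ± 0.268, edgeR adjusted p = 2.49e-09 in S7fl/fl). Il1rn, which encodes the secreted antagonist of the interleukin-1 receptor, was higher at day 3 (log2 3.18 ± 0.258, edgeR adjusted p = 1.11e-09 in MyS7KO; log2 3.41 ± 0.261, edgeR adjusted p = 5.59e-10 in S7fl/fl). The same held at day 7 (log2 2.55 ± 0.254, edgeR adjusted p = 7.93e-08 in MyS7KO; log2 3.02 ± 0.268, edgeR adjusted p = 1.37e-08 in S7fl/fl). Proposed endogenous ligands of TLR2 and TLR4 split as well: of 9, 4 were higher and 4 lower at day 3 in MyS7KO and 3 and 4 in S7fl/fl, and 3 and 3 at day 7 in MyS7KO and 2 and 3 in S7fl/fl. Median log2 changes were -0.91 in MyS7KO and -0.62 in S7fl/fl at day 3, and -0.05 in MyS7KO and 0.10 in S7fl/fl at day 7. The lower S7fl/fl ligands at day 3 were 2 without S7fl/fl baseline replicate 1, 2 or 3 or day 3 replicate 3 or 5. Fn1, which encodes fibronectin, was higher at day 3 (log2 3.60 ± 0.368, edgeR adjusted p = 5.02e-08 in MyS7KO; log2 3.91 ± 0.374, edgeR adjusted p = 2.33e-08 in S7fl/fl) and in S7fl/fl at day 7 (log2 3.00 ± 0.373, edgeR adjusted p = 1.95e-06). Hspa1a, the inducible HSP70, had 191 ± 40.9 CPM against 3756 ± 1160 CPM at baseline in MyS7KO at day 3 (log2 -4.30 ± 0.299, edgeR adjusted p = 2.65e-10). In S7fl/fl it had 129 ± 34.4 CPM against 3469 ± 310 CPM at baseline (log2 -4.75 ± 0.304, edgeR adjusted p = 9.54e-11). Hspa1a was lower at day 7 too (log2 -3.21 ± 0.313, edgeR adjusted p = 9.58e-08 in MyS7KO; log2 -4.04 ± 0.363, edgeR adjusted p = 3.13e-08 in S7fl/fl). Hspd1, which encodes the mitochondrial HSP60, was lower at day 7 in MyS7KO (log2 -2.22 ± 0.224, edgeR adjusted p = 1.01e-07). Here too, genes given for 1 genotype only were not among the 2 lowest p-values of the other. These counts use genes picked as pathway members with earlier results of these data known.

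**Figure D5:**
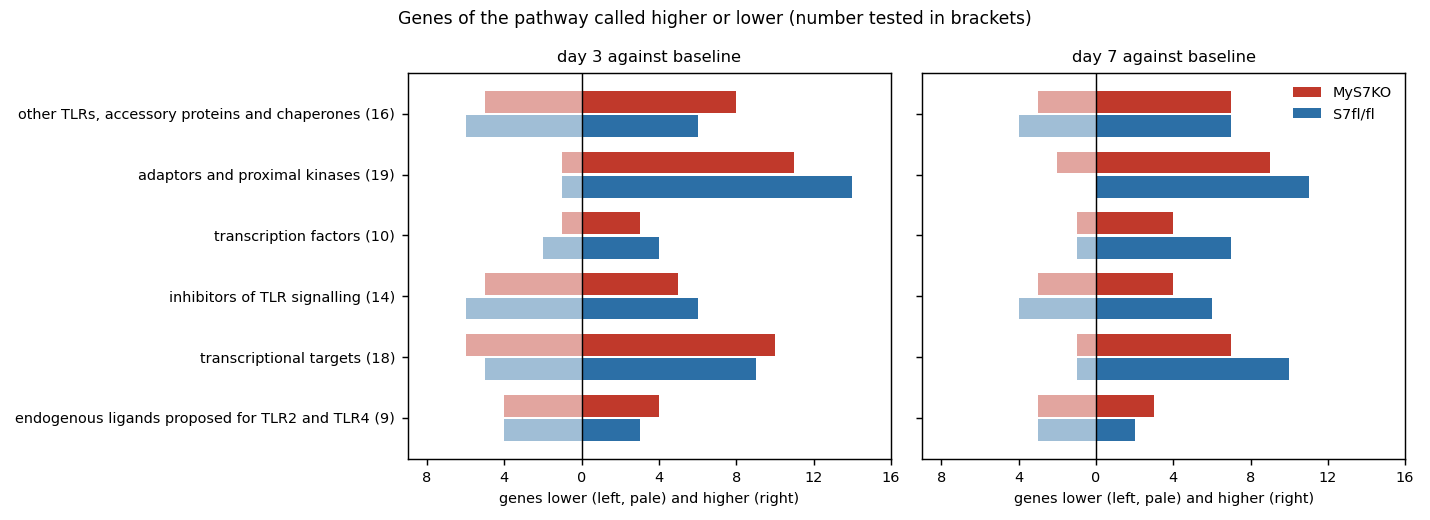
Number of genes of each pathway list called lower (pale bars, left of 0) and higher (right of 0) at day 3 and day 7 against baseline, with MyS7KO in red above S7fl/fl in blue and the number tested in brackets. Adaptors and proximal kinases reach 11 higher and 1 lower in MyS7KO and 14 higher and 1 lower in S7fl/fl at day 3.

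For genes whose 6 group means spanned at least 1 on the log2 scale, the 2 most similar of 11189 genes were found as those with the smallest root mean square difference of log2 CPM, centred per gene, over the 23 libraries. These libraries share the same 3 times, so the differences are a description. For Cd14 they were Slfn2 (0.133) and Lpxn (0.181), for Tlr2 Zc3h12a (0.174) and Lpcat2 (0.197), and for Tlr9 Zc3h12a (0.173) and Kif21b (0.200). For Tlr1 they were Stxbp2 (0.155) and Lamtor1 (0.160), for Tlr13 Cd84 (0.188) and Gsto1 (0.196), and for Tlr5 Mrc1 (0.278) and Cass4 (0.341). Mrc1 is 1 of the 6 resident macrophage markers. Among the 10 genes themselves, the closest pairs were Tlr7 with Tlr8 (0.253), Cd14 with Tlr13 (0.266), Cd14 with Tlr1 (0.272), Tlr2 with Tlr9 (0.278) and Tlr1 with Tlr6 (0.279), and the farthest was Tlr5 with Tlr13 (1.19).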

How the data were processed

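Bulk poly(A) RNA from 23 libraries was sequenced as paired reads of 150 bases. The authors deposited whole-number read counts per gene, and the authors also deposited FPKM, which scale reads to gene length and depth. HTSeq 0.6.1, TopHat2 2.0.9 and Cufflinks 2.1.1 are listed, per the submitters' processing notes, with the builds mm10 and GRCm38.p6 and without roles. Whether counting used strand is not given in the sources used here. In the GENCODE M21 annotation, none of the 10 genes overlaps another gene's exons. Its gene coordinates were those of the deposited counts for 9 of the 10 genes, all but Cd14. The annotation used by the authors for counting was not itself checked.

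Genes with too few counts were dropped with edgeR's default filter on the 6 groups, which left 16545 of 54532. The test was edgeR 4.0.16's robust quasi-likelihood test (R 4.3.3) with TMM scaling, 1 coefficient per group and all libraries in 1 fit. Benjamini-Hochberg adjustment ran over all genes tested. Library totals of 15479402 to 23884938 counts gave each of the 10 genes at least 118 counts in every library, and intervals cover the spread between libraries only.

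Alternatives were DESeq2 1.42.0 (size factors), RLE scaling, no filter, limma-voom with sample weights (limma 3.58.1), fits of the groups compared, limma on log2(FPKM + 1) and log2(FPKM + 0.1) with a mean of at least 0.1 FPKM, the fit on log2(FPKM + 1) also without that filter, the replicate number as a block, sex as a covariate, leaving out the 2 libraries of mixed sex signal, and leaving out each library. The same settings for the pathway lists, Smad7 and Lyz2 were chosen after seeing the data. Sex was read from Xist and from Y-linked genes. Replicates of a group differed by more than sampling noise in all 35 pairs (9.34 to 56.6 for chi-square over its degrees of freedom).

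The 10 genes, the pathway lists and the marker lists were chosen with earlier results of these data known. All 10 are named; of each pathway list, the 2 genes called with the lowest p-value in a comparison are named.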

Additional observations from a re-analysis of the deposited data

Results flagged for a closer look

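Of 30 combinations of gene and group with 4 or 5 libraries, 2 held a library far from the others, and chance alone marks about 1 in 20 such groups. Tlr5, the flagellin receptor, read 7.79 CPM in MyS7KO day 3 replicate 5, the lowest of its group, where the next library read 12.99 CPM. The level of this library lay within the range of the MyS7KO libraries at day 7. Tlr7, the receptor for single-stranded RNA, read 222 CPM in MyS7KO day 7 replicate 3, the highest of its group, where the next library read 176 CPM. Without this library the log2 change of Tlr7 from baseline to day 7 in MyS7KO was -0.08 (edgeR adjusted p = 0.707), beside 0.03 with it. The cause of either value was not tested.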

How the results depend on the processing

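For the 10 genes, 81 log2 values were followed. They were all changes between times, and genotype differences or their changes between times with an unadjusted edgeR p under 0.05. The genotype differences of Tlr5 at baseline, Cd14 at day 3 and Tlr4 at day 7 were added. Other genotype differences, some of them near 0, were not followed, so their sign changes are not counted. Outside the fits that leave out 1 library, 859 of 891 recomputed values kept their direction and their side of the threshold. Of the rest, 26 lost a call, 3 gained one and 3 changed sign. Leaving out 1 library at a time gave 1820 of 1863 such values, with 30 calls lost, 7 gained and 6 signs changed. The genotype calls stayed at 0 of 10 in all of these settings. With limma on log2(FPKM + 1) and no filter, the genes called were 2 for day 7 against day 3 in MyS7KO, 4 for day 3 against baseline in S7fl/fl and 1 for day 7 against day 3 in S7fl/fl. More low genes enter that fit, and the cause was not tested further. Leaving out 1 library moved the count for day 7 against day 3 in S7fl/fl between 3 and 5.

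Among the values followed, signs changed only where there was no call. They were Tlr4 for day 7 against day 3 in MyS7KO with sex as a covariate (0.0173), Tlr13 for the same comparison with limma-voom (-0.0257), and Tlr1 for day 7 against day 3 in S7fl/fl without the libraries of mixed sex signal (0.0213). Over the fits without 1 library, log2 values ran from -0.0715 to 0.15 for Tlr13 (day 7 against day 3 in MyS7KO) and from -0.10 to 0.0217 for Tlr1 (day 7 against day 3 in S7fl/fl). They ran from -0.0872 to 0.21 for Tlr7 (day 7 against baseline in MyS7KO) and from -0.10 to 0.47 for Tlr8 (day 3 against baseline in S7fl/fl). The cause was not tested.

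Residuals of same-numbered libraries of the 2 genotypes correlated between -0.32 and 0.35, above 0.1 in 6 of 10 pairs. In 2 of the 10 pairs each library was the best match of the other. These few values cannot decide whether replicate numbers pair the libraries. With the replicate number as a block, Tlr8 at day 3 in MyS7KO was no longer called (log2 -0.47, edgeR adjusted p = 0.0877), so 6 genes were called in place of 7, and no other call among the 10 genes changed. Of the pathway counts, 1539 of 1632 stayed within 1.5 times, and of the changes of named pathway genes, Smad7 and Lyz2, 1810 of 1836 kept direction and call.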
